A study of Mus musculus with 12 samples.

Results

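The genes described here carry carbon from cytosolic acetyl-CoA to stored triglyceride in the liver. The set has 38 genes out of the 46983 in the count files, chosen by name for their known place in the pathway and grouped into 8 steps. Earlier results of these data were known when the choice was made. There are 4 regulators, 4 genes of precursor supply, 3 of palmitate synthesis, 7 of elongation, 6 of desaturation, 5 of phosphatidic acid synthesis, 6 of diacylglycerol and triglyceride synthesis, and 3 of lipid remodelling and hydrolysis. All 38 were found in the files by gene symbol, and 36 had enough reads to be tested. Elovl3, an elongase, had only 4 to 7 reads per group of 3 libraries, and Agpat4, an acyltransferase, had 13 to 16, so neither was tested.

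In this pathway citrate leaves the mitochondrion, is split to acetyl-CoA, and is carboxylated to malonyl-CoA, from which fatty acid synthase builds palmitate. Elongases and desaturases then lengthen and unsaturate the chain, and acyltransferases place it on glycerol 3-phosphate to give phosphatidic acid, diacylglycerol and triglyceride. In liver the pathway is known for its control by insulin through SREBP-1c, by glucose through ChREBP and by oxysterols through LXR. PPARα, the receptor activated by the compound used here, is known mainly as the regulator of fatty acid oxidation.

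Primary mouse hepatocytes were cultured from animals of 2 genotypes. AEG-1-WT is called wild type below, and AEG-1-L24K/L25H, with 2 changed residues of the AEG-1 protein (the product of Mtdh), is called knock-in. The knock-in was made with CRISPR/Cas9 on a C57BL/6/J background, and both genotypes were littermates from matings of heterozygotes on regular chow. Cells of each genotype were left untreated or received the PPARα agonist CP775146 at 2.5 µM for 24 h, where the unit is read from a symbol-font character in the protocol. Each of the 4 groups has 3 libraries. The controls are called untreated, and no vehicle is named. An effect of the agonist therefore cannot be told apart from one of vehicle, handling or preparation. Age and sex of the donor mice are not given for the hepatocyte cultures in the sources used here. The change is carried in the germline, so it is not limited to hepatocytes in the animal. Nothing says that the 3 replicates came from separate animals or cultures, so p-values measure only the spread between these libraries, which may be technical, and genotype cannot be told apart from differences between animals or preparations.

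The libraries held 26956032 to 34885451 counted reads, so that a floor of 3 reads equals 0.086 to 0.1113 CPM. CPM, the depth-scaled count of a gene, is given below on TMM-scaled library sizes, means are given ± SD over n = 3 libraries, and fold changes are log2 values ± SE from edgeR's quasi-likelihood test over all 15664 tested genes. A gene was called changed at a Benjamini-Hochberg adjusted p below 0.05. The known PPARα target Ehhadh rose with the agonist from 52.5 ± 2.67 to 3898 ± 93.5 CPM in wild type and from 68.7 ± 0.681 to 5157 ± 90.1 CPM in the knock-in. Counts of Mtdh do not check the 2-residue change, and its level differed between untreated genotypes by 0.06 ± 0.04 (adjusted p = 0.262). The cells expressed hepatocyte genes strongly, with the 6 matched markers (among them Alb, Ttr and Apoa1) summing to 112900 to 115800 CPM in untreated and 116000 to 122700 CPM in treated wild type, and to 78730 to 83280 and 72940 to 75600 CPM in the knock-in. Most of that sum is Alb, at 102100 CPM in untreated wild type and 70530 CPM in the untreated knock-in, while Hnf4a read 631.3 and 625.3 CPM.

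The agonist moved most of the pathway upward in both genotypes, while genotype moved it in both directions. Because the set was chosen with earlier results known, its counts do not test an excess over all genes. In wild type, 24 of the 36 tested genes rose and 8 fell with CP775146, while 45% of all tested genes were called, 22.7% as higher and 22.3% as lower. In the knock-in, 26 rose and 4 fell, while 37.2% of all genes were called, 18.1% as higher and 19.1% as lower. The median change of the 36 genes was 0.32 in wild type and 0.39 in the knock-in, and the median of all tested genes was -0.01 in each. Mogat1 passed the filter on low counts only through the treated groups, and without it 23 and 25 of 35 genes rose, with medians of 0.29 and 0.38, and 22 rose in both genotypes. A rise or fall of at least 2-fold was called for 5 of the genes in wild type (Acacb, Scd1, Mogat1, Lpcat3 and Mgll) and, with Scd2, for 6 in the knock-in, against 6.48% and 4.16% of all genes. Without Mogat1 these counts were 4 and 5 of 35. The untreated knock-in had 10 genes above and 10 below wild type, where 37% of all genes were called, 18.4% as higher and 18.6% as lower. With the agonist 12 were above and 10 below, against 20.5% and 22% of all genes (42.5% together). The size of the agonist effect differed between genotypes for 10 of the 36 genes, being more positive in the knock-in for 6 and less positive for 4, against 2.78% and 4.33% of all genes (7.11% together). These shares of all genes include weakly expressed genes. A fit of only the 10410 genes with 5 CPM in 3 libraries called 2977 higher and 2929 lower with the agonist in wild type. In the knock-in it called 2426 and 2648. For genotype it called 2451 and 2419 without treatment and 2681 and 2876 with it, and for the difference in agonist effect 414 and 716.

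Scaling to total counts in place of TMM put the median of all genes at -0.104 for the agonist in wild type and at 0.124 for genotype in treated cells (-0.01 for each with TMM), so the split between directions depends on it. Under that scaling the agonist raised 21 and lowered 8 of the genes in wild type, and raised 26 and lowered 5 in the knock-in. The genotype splits became 18 higher and 6 lower without treatment, and 22 higher and 5 lower with it, and the difference in agonist effect was more positive in the knock-in for 11 and less positive for 3. Over all genes the splits became 2358 higher and 5338 lower (3553 and 3496 with TMM) for the agonist in wild type and 2066 and 4352 (2832 and 2989) in the knock-in. For genotype they became 5024 and 1722 (2884 and 2918) without treatment and 5950 and 1867 (3218 and 3447) with it, and for the difference in agonist effect 663 and 519 (435 and 678).

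**Figure D1:**
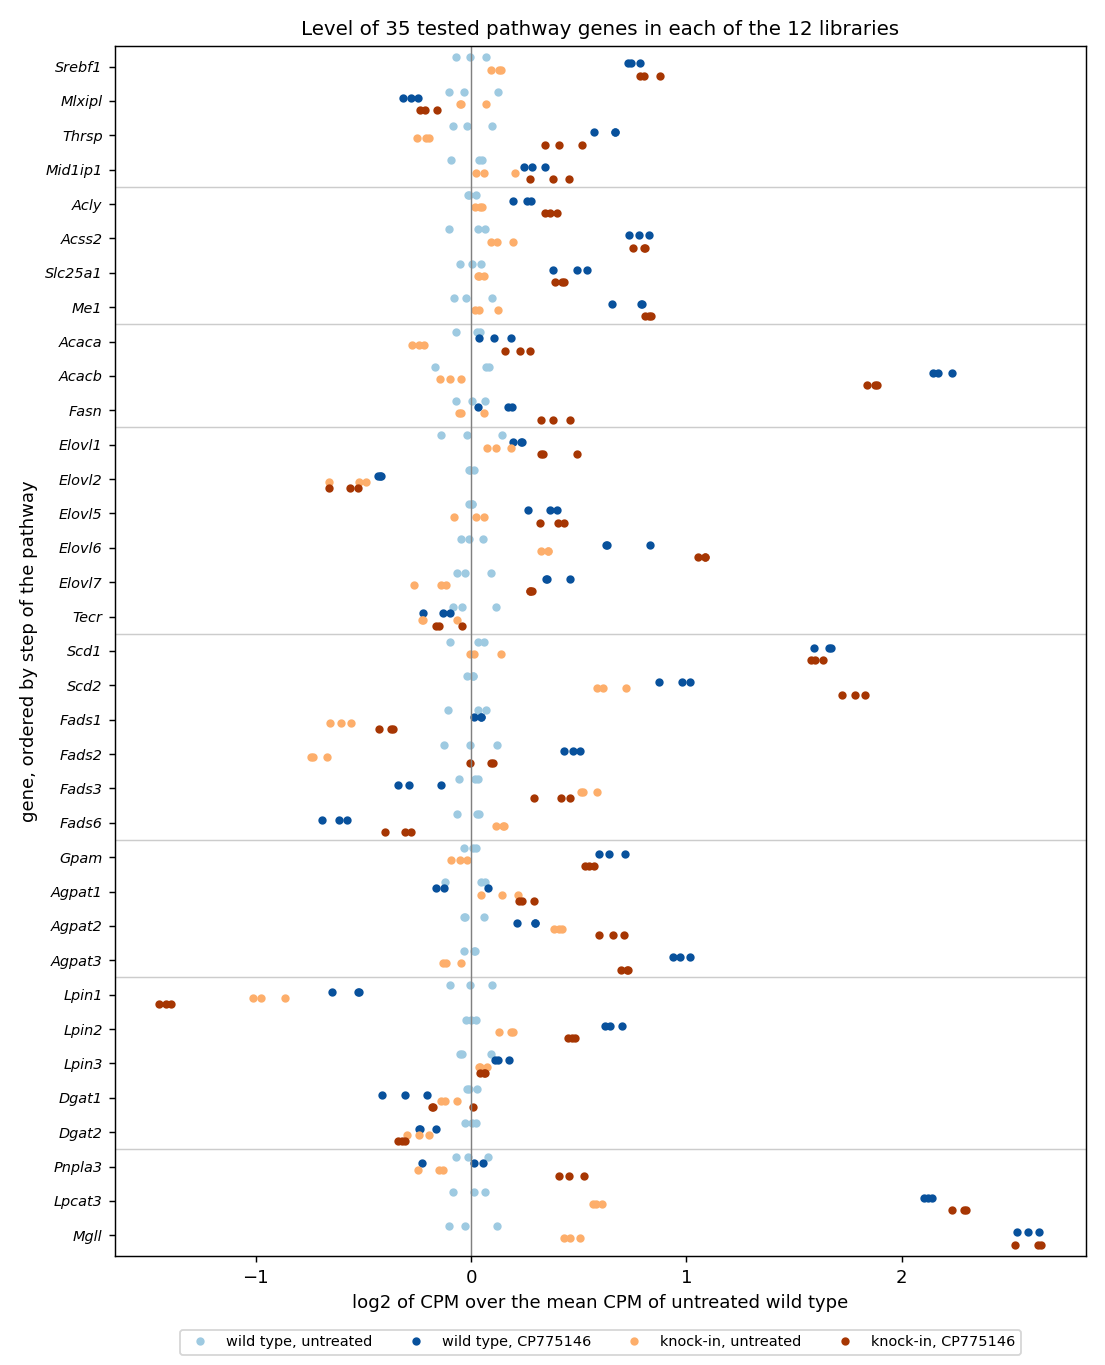
Each point is 1 library, placed by the log2 ratio of its CPM to the mean of untreated wild type, for 35 tested genes (Mogat1 is left out because 1 untreated library had no read), ordered by step of the pathway. The treated libraries (dark points) of Mgll, Lpcat3, Acacb and Scd1 lie far to the right in both genotypes, while Lpin1 lies to the left in the knock-in and further left with the agonist.

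Shares of all counted reads correspond to total-count scaling and carry its shifts between groups. By this measure the 38 genes took 0.803% to 0.839% in the untreated wild-type libraries and 1.55% to 1.59% with the agonist. In the knock-in they took 0.874% to 0.917% and 1.65% to 1.71%. Scd1 alone supplied 35.7% to 38% of these reads in untreated wild type and 55.7% to 57.1% with the agonist, and 37.3% to 39.2% and 56.3% to 56.6% in the knock-in. Per kilobase of exon, the mean level of Scd1 in untreated wild type was 635.1 CPM per kb, followed by Fads2 at 129.7, Dgat2 at 120.9 and Tecr at 109.6 CPM per kb, and the lowest tested genes apart from Mogat1 were Acaca at 2.51 and Pnpla3 at 1.41 CPM per kb. With the agonist Mgll moved from rank 25 to rank 10 among the 38 genes in wild type, Lpcat3 from 21 to 9 and Acacb from 30 to 19.

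Upstream sequences were taken from RefSeq promoter windows (GRCm38.p6), which reach from 250 bases before to 50 bases after each start site. They matched 32 of the 38 genes with 44 windows. The genes without a window were Scd1, Scd2, Fads1, Dgat1, Dgat2 and Elovl3. Motifs were searched on both strands. Windows of 1 chromosome, which holds none of the 38 genes, were left out of the search. The E-box CACGTG, known to bind USF and as part of ChREBP sites, was in a window of 6 of 32 genes (Elovl5, Lpin2, Lpin3, Mgll, Mlxipl and Slc25a1), or 18.8%, against 8.09% of the 27025 genes searched. CCAAT, the letters of NF-Y sites, was in 20 of 32 genes (62.5%, against 41.1%), and the GC box GGGCGG was in 22 (68.8%, against 38.2%). A gene with more windows has more places for a match. Counted by window, the shares were 13.6% against 7.15% for the E-box, 47.7% against 37.4% for CCAAT and 61.4% against 35.7% for the GC box. The sterol regulatory element letters TCACNCCAC were in 1 gene, Mlxipl (3.12%, against 1.44%). A direct repeat of AGGNCA with 1 base between the copies, the form that PPARα and RXR are known to bind, was in 1 gene, Elovl1 (3.12%, against 0.451%). The stricter repeat of AGGTCA with 1 base between the copies, and the LXR-type repeat of AGGTCA with 4 bases between them, were in none of the 32, and in 0.0481% and 0.0148% of all genes. These are letter matches in short windows and not measured sites. The 27025 genes searched were not limited to genes expressed in these cells. The shares therefore do not set the pathway genes apart from other expressed genes.

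The 250 bases before the start site are shown for 4 genes that rose with the agonist in at least 1 genotype and differ in how that rise compares between genotypes: Fasn and Pnpla3 (larger in the knock-in), Lpin2 (smaller) and Slc25a1 (no difference called). They run 5′ to 3′ on the strand of the gene, and capitals mark CACGTG and CCAAT or its reverse complement ATTGG. Fasn is chr11:120824548-120824797 on the minus strand, Pnpla3 is chr15:84167566-84167815 on the plus strand, and Slc25a1 is chr16:17928220-17928469 on the minus strand, each directly before the annotated gene. Lpin2 is chr17:71183282-71183531 on the plus strand, inside the annotated gene but over no exon, and is 1 of its RefSeq windows.
Fasn: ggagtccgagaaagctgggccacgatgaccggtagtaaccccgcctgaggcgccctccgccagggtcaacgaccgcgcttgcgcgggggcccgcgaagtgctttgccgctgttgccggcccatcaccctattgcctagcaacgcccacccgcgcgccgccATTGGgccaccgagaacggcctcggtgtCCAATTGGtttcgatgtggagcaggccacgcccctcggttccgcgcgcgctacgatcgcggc
Pnpla3: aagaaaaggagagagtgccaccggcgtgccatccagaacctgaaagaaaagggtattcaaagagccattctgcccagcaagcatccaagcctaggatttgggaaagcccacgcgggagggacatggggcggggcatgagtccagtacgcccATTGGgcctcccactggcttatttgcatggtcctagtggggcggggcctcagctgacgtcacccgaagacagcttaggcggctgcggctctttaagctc
Lpin2: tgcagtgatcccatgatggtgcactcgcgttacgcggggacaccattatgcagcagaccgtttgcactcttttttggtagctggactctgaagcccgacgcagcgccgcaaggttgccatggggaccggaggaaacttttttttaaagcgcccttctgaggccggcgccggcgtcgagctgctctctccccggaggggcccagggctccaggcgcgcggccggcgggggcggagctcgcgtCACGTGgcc
Slc25a1: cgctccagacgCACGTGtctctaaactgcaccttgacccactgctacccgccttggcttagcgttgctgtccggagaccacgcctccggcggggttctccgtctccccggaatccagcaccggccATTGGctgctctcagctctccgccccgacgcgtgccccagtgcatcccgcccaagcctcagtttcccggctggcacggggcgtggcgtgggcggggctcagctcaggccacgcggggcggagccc
In Fasn the matches begin 90, 62 and 59 bases before the start site, and the last pair overlaps as CCAATTGG. In Pnpla3 the match begins 99 bases before it. In Lpin2 the E-box begins 9 bases before the start site, and in Slc25a1 an E-box begins at 239 and an ATTGG at 125 bases before it.

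Coordinates given with gene identifiers below are the spans of whole genes in GRCm38, over whose exons reads were counted. Of the 4 regulators, 3 rose with the agonist in both genotypes and 1 fell. Srebf1 encodes SREBP-1, the sterol regulatory element binding factor that switches on most lipogenic genes once it has been cleaved, a step that counts do not show. It rose from 73.7 ± 3.50 to 124.1 ± 2.49 CPM in wild type (0.75 ± 0.04, adjusted p = 2.65e-15) and from 80.1 ± 1.28 to 130.1 ± 4.46 CPM in the knock-in (0.70 ± 0.04, adjusted p = 1.14e-14). Thrsp (Spot 14), a small nuclear protein tied to lipogenesis, rose by 0.63 ± 0.06 and 0.64 ± 0.06, and its relative Mid1ip1, which promotes polymerisation of acetyl-CoA carboxylase, by 0.29 ± 0.06 and 0.27 ± 0.05. Of the exonic bases of Mid1ip1, 25.5% are shared with Gm14493, which had no reads. Mlxipl, the gene of the glucose sensor ChREBP, fell from 137 ± 11.1 to 112.8 ± 2.84 CPM in wild type (-0.28 ± 0.05, adjusted p = 1.94e-05) and from 136.2 ± 6.46 to 119 ± 3.39 CPM in the knock-in (-0.19 ± 0.05, adjusted p = 0.00152). None of the 4 differed between genotypes in its agonist effect, with 95% intervals of the difference from -0.17 to 0.06 for Srebf1 and from -0.05 to 0.22 for Mlxipl. Between genotypes, Thrsp was lower in the knock-in by 0.22 ± 0.06 in untreated and 0.21 ± 0.06 in treated cells, and total-count scaling removed both calls (adjusted p = 0.141 and 0.299). The untreated call was also lost without wild-type replicate 3 (adjusted p = 0.0562). Srebf1 was higher in the untreated knock-in by 0.12 ± 0.04 (adjusted p = 0.025), a call lost without knock-in replicate 1 or 3 or without wild-type replicate 3 (adjusted p = 0.0703, 0.0579 and 0.136).

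All 4 genes of precursor supply rose in both genotypes. Slc25a1, the mitochondrial citrate carrier, rose from 222.4 ± 7.47 to 308.4 ± 16.9 CPM in wild type (0.47 ± 0.04) and from 229 ± 2.29 to 296.6 ± 4.80 CPM in the knock-in (0.37 ± 0.04). Acly, the enzyme that splits citrate, rose from 289.1 ± 3.98 to 342.5 ± 10.3 CPM (0.24 ± 0.04) and from 296.6 ± 3.32 to 373.4 ± 7.06 CPM (0.33 ± 0.04). Acss2, which makes acetyl-CoA from acetate, rose by 0.78 ± 0.05 and 0.65 ± 0.04, and Me1, the malic enzyme that supplies NADPH, by 0.75 ± 0.04 and 0.76 ± 0.04. The adjusted p-values of these 8 changes ran up to 1.42e-06. The agonist effect was called different between genotypes for none of these genes, with 95% intervals of the difference from -0.26 to -0.01 for Acss2 (adjusted p = 0.244) and from -0.11 to 0.14 for Me1. Between genotypes, Acly was higher in the treated knock-in by 0.12 ± 0.04 (adjusted p = 0.00485) and Acss2 in the untreated knock-in by 0.14 ± 0.05 (adjusted p = 0.0195). Acss2 shares 9.1% of its exonic bases with Gss. Its call was lost without knock-in replicate 2 or wild-type replicate 1 (adjusted p = 0.1 and 0.145).

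Palmitate synthesis divided into a gene with a large rise and a pair with small ones, called for both of the pair only in the knock-in. Acacb (ENSMUSG00000042010, chr5:114146535-114250761) encodes the acetyl-CoA carboxylase of the mitochondrial surface, whose malonyl-CoA is known to hold back fatty acid entry into mitochondria. It read 70.9, 71.6 and 60.0 CPM in untreated wild type and 303.1, 317 and 298.8 CPM with the agonist, and 61.0, 63.0 and 65.3 CPM in the untreated knock-in and 247.4, 241.6 and 248.9 CPM with the agonist. All treated libraries lay far above all untreated ones, and the treated knock-in libraries lay below the treated wild-type ones. The rise was 4.54-fold in wild type (2.18 ± 0.05, adjusted p = 5.82e-24) and 3.90-fold in the knock-in (1.96 ± 0.05, adjusted p = 8.86e-23). The difference between these rises was -0.22 ± 0.07 (adjusted p = 0.0488) and lost its call in 13 of 18 alternative settings, with adjusted p from 0.00509 to 0.134. Among them was leaving out wild-type untreated replicate 3, its lowest library, which gave -0.14.

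Acaca and Fasn behaved otherwise. Acaca (ENSMUSG00000020532, chr11:84129672-84401651), the cytosolic carboxylase that feeds fatty acid synthase, read 43.7, 40.8 and 44.0 CPM in untreated wild type and 46.1, 48.7 and 43.95 CPM with the agonist, groups that overlap (0.11 ± 0.05, adjusted p = 0.0705). In the knock-in it went from 36.8, 35.4 and 36.2 CPM to 51.7, 47.8 and 50.2 CPM, a rise of 0.47 ± 0.05 (adjusted p = 4.93e-09). The untreated knock-in thus lay below every wild-type library (-0.25 ± 0.05, adjusted p = 0.000218), and the treated groups overlapped. Their difference, 0.11 ± 0.05, was not called (adjusted p = 0.071). It was called with RLE scaling (adjusted p = 0.0493), total-count scaling (0.245, adjusted p = 0.00013) and without treated replicate 2 of knock-in or wild type (adjusted p = 0.0442 and 0.0157). The wild-type agonist effect was called without treated replicate 3 (0.14, adjusted p = 0.0348). Fasn (ENSMUSG00000025153, chr11:120805846-120824547), fatty acid synthase itself, read 369.8, 384.5 and 350.2 CPM in untreated wild type and 415.1, 420.2 and 376.4 CPM with the agonist. Knock-in libraries read 354.7, 356 and 384 CPM untreated and 506, 461.8 and 478.6 CPM with the agonist. The wild-type groups overlap and the knock-in groups do not, with changes of 0.13 ± 0.05 (adjusted p = 0.0193) and 0.40 ± 0.05 (adjusted p = 5.21e-08). The wild-type call was lost without untreated replicate 3 (0.10, adjusted p = 0.0948), without treated replicate 1 (0.11, adjusted p = 0.108) or 2 (0.10, adjusted p = 0.119), under total-count scaling (0.04, adjusted p = 0.558) and when wild type was fitted alone (adjusted p = 0.05). The agonist effect was larger in the knock-in by 0.36 ± 0.07 for Acaca (adjusted p = 0.00118) and by 0.27 ± 0.06 for Fasn (adjusted p = 0.0099), the latter losing its call without treated knock-in replicate 1 (adjusted p = 0.0519).

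Among the 6 tested elongation genes, 4 rose with the agonist in both genotypes and 2 fell in wild type. Elovl6, which extends palmitate to stearate, rose from 86.2 ± 3.09 to 139.9 ± 11.5 CPM in wild type (0.70 ± 0.05, adjusted p = 1.47e-13) and from 109.4 ± 1.43 to 181.6 ± 2.39 CPM in the knock-in (0.73 ± 0.04, adjusted p = 3.29e-14). Elovl5, an elongase of polyunsaturated chains, rose by 0.34 ± 0.04 and 0.38 ± 0.04, Elovl7 by 0.39 ± 0.05 and 0.45 ± 0.05, and Elovl1, an elongase of long saturated chains, by 0.22 ± 0.06 and 0.26 ± 0.06. The Elovl1 call in wild type was lost under total-count scaling (adjusted p = 0.069). Elovl2 (ENSMUSG00000021364, chr13:41182495-41220405), which extends long polyunsaturated chains on the way to DHA, read 113.5, 112.1 and 111.5 CPM in untreated wild type and 84.1, 83.7 and 83.3 CPM with the agonist, a fall of 0.42 ± 0.04 (adjusted p = 3.63e-09). Knock-in libraries read 71.1, 78.5 and 80.2 CPM untreated and 78.1, 71.1 and 76.2 CPM with the agonist, groups that overlap (-0.03 ± 0.04, adjusted p = 0.663). The untreated knock-in libraries were thus all below the treated wild-type ones, and the agonist effects differed by 0.40 ± 0.06 (adjusted p = 9.57e-05). Tecr, the reductase of the elongation cycle, was lower with the agonist in wild type by 0.15 ± 0.05 (adjusted p = 0.0245), a call lost without wild-type untreated replicate 2 (-0.09) or treated replicate 2 (adjusted p = 0.105).

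By genotype, Elovl6 was higher in the knock-in by 0.34 ± 0.05 in untreated and 0.38 ± 0.04 in treated cells, with no overlap of libraries. Elovl2 was lower by 0.55 ± 0.04 untreated (adjusted p = 2.19e-11) and by 0.16 ± 0.04 treated (adjusted p = 0.00566). The treated Elovl2 call was lost under total-count scaling (-0.02, adjusted p = 0.758) and without treated knock-in replicate 2 (adjusted p = 0.0629). Elovl7 and Tecr were each lower in the untreated knock-in by 0.17 ± 0.05, and Elovl1 was higher in the treated knock-in by 0.16 ± 0.06. These 3 calls were each lost in at least 2 fits without 1 library, with Tecr at -0.10 without wild-type untreated replicate 2. Total-count scaling also removed those of Elovl7 and Tecr.

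The desaturation genes held the most abundant gene of the set. Scd1 (ENSMUSG00000037071, chr19:44394451-44407709), the stearoyl-CoA desaturase that makes oleate and palmitoleate, read 3201, 3141 and 2872 CPM in untreated wild type and 9250, 9709 and 9771 CPM with the agonist. The knock-in read 3064, 3102 and 3378 CPM untreated and 9528, 9170 and 9300 CPM with the agonist. Treated libraries were about 3 times the untreated ones in both genotypes, and the genotypes overlap in both states. The rise was 3.12-fold in wild type (1.64 ± 0.04, adjusted p = 2.63e-23) and 2.93-fold in the knock-in (1.55 ± 0.04, adjusted p = 1.51e-22), and the 95% interval of the difference was -0.21 to 0.03. Scd2 (ENSMUSG00000025203, chr19:44293676-44306864), its paralog, is lower, and its level differed by genotype. It read 46.3, 47.1 and 47.1 CPM in untreated wild type, 92.4, 94.6 and 85.8 CPM in treated wild type, 71.5, 70.2 and 77.1 CPM in the untreated knock-in and 166.1, 154.5 and 161 CPM in the treated knock-in. The 4 groups do not overlap, with the knock-in above wild type in both states. Scd2 rose by 0.96 ± 0.05 in wild type (adjusted p = 1.42e-16) and 1.14 ± 0.04 in the knock-in (adjusted p = 4.13e-19), and was higher in the knock-in by 0.64 ± 0.05 untreated and 0.82 ± 0.04 treated (adjusted p = 3.67e-12 and 2.1e-15). The difference between its agonist effects, 0.18 ± 0.06, was not called (adjusted p = 0.0935). It was called under total-count scaling (0.21, adjusted p = 0.0426). It was also called without knock-in untreated replicate 3 (adjusted p = 0.0499) or wild-type treated replicate 2 (adjusted p = 0.0327). The Scd genes are similar in sequence, so reads that fit more than 1 of them could be divided or lost in counting, and their levels are uncertain to that extent.

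The fatty acid desaturases Fads1, Fads2 and Fads3 lie next to each other on chromosome 19 and did not move together. Fads2 (ENSMUSG00000024665, chr19:10064164-10101503), the delta-6 desaturase at the start of polyunsaturated fatty acid synthesis, read 194.7, 213 and 179.2 CPM in untreated wild type and 277.4, 271.8 and 263.8 CPM with the agonist. In the knock-in it went from 117, 117.7 and 123.2 CPM to 210.1, 194.7 and 208.8 CPM. It rose in both genotypes, by 0.47 ± 0.05 and by 0.78 ± 0.05, and the rise was larger in the knock-in by 0.31 ± 0.07 (adjusted p = 0.00417). The knock-in was lower than wild type by 0.71 ± 0.05 untreated (adjusted p = 2.29e-12) and by 0.41 ± 0.05 treated (adjusted p = 5.26e-08), and the treated knock-in libraries reached the range of untreated wild type. Fads1, the delta-5 desaturase, was likewise lower in the knock-in, by 0.60 ± 0.04 untreated (319.4 ± 20.6 against 210 ± 6.78 CPM) and 0.42 ± 0.04 treated (327.2 ± 4.03 against 244 ± 6.12 CPM). It rose with the agonist in the knock-in by 0.22 ± 0.04 (adjusted p = 0.000106) and was not called in wild type (0.04 ± 0.04, adjusted p = 0.517). Its difference between those effects, 0.18 ± 0.06, was not called (adjusted p = 0.0561), and was called by DESeq2 (adjusted p = 0.0402) and under total-count scaling (adjusted p = 0.0182). Fads3 went the other way by genotype, higher in the knock-in by 0.54 ± 0.05 untreated (141.1 ± 4.60 against 204.9 ± 5.77 CPM) and 0.65 ± 0.05 treated (118.3 ± 8.52 against 185.1 ± 10.9 CPM). It fell with the agonist by 0.25 ± 0.05 in wild type and 0.15 ± 0.05 in the knock-in, the latter lost without knock-in untreated replicate 3 or treated replicate 2 (adjusted p = 0.0761 and 0.126). Fads6, a family member of less defined function, fell from 129.9 ± 4.95 to 84.2 ± 3.41 CPM in wild type (-0.63 ± 0.04) and from 143 ± 2.07 to 103.5 ± 4.45 CPM in the knock-in (-0.47 ± 0.04). It was higher in the knock-in by 0.14 ± 0.04 untreated (adjusted p = 0.00871), lost without wild-type untreated replicate 1 (0.11, adjusted p = 0.0593), and by 0.30 ± 0.04 treated (adjusted p = 1.23e-06).

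Of the 4 tested genes of phosphatidic acid synthesis, 3 rose in both genotypes. Gpam, the mitochondrial glycerol 3-phosphate acyltransferase that commits acyl-CoA to glycerolipid, rose from 368 ± 7.34 to 578.2 ± 24.5 CPM in wild type (0.65 ± 0.04) and from 354.3 ± 8.67 to 538.5 ± 7.24 CPM in the knock-in (0.60 ± 0.04). Agpat3 rose from 239.5 ± 4.77 to 470.9 ± 12.9 CPM (0.98 ± 0.04, adjusted p = 1.62e-19) and from 223.9 ± 6.97 to 393.7 ± 4.66 CPM (0.81 ± 0.04, adjusted p = 1.76e-17). Agpat2, the acyltransferase whose loss is known to cause lipodystrophy, rose by 0.27 ± 0.04 and 0.25 ± 0.04. The Agpat3 rise was smaller in the knock-in by 0.16 ± 0.05, short of the threshold (adjusted p = 0.0526), and was past it with DESeq2 (adjusted p = 0.0313), without the filter (0.0445) and with a filter of 5 CPM in 3 libraries (0.0298). Agpat1 was not called in either genotype (-0.06 ± 0.07 and 0.11 ± 0.07) and was higher in the treated knock-in by 0.31 ± 0.07 (adjusted p = 0.000521). Agpat2 was higher in the knock-in by 0.40 ± 0.04 untreated and 0.39 ± 0.04 treated, and Agpat3 was lower in the treated knock-in by 0.26 ± 0.04. Gpam was lower there by 0.10 ± 0.04 (adjusted p = 0.0248), with the sign turning under total-count scaling (0.03), and the call ending when the treated groups were fitted alone or 1 of 3 libraries was left out (-0.06 without wild-type treated replicate 2). Agpat3 in untreated cells (-0.10 ± 0.04) lost its call in 7 of the 12 fits without 1 library and turned to 0.005 under total-count scaling.

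The last steps to triglyceride moved in opposite directions. The lipins turn phosphatidic acid into diacylglycerol, and Lpin1 and Lpin2 parted. Lpin1 (ENSMUSG00000020593, chr12:16535669-16589770), also a coactivator of PPARα, fell with the agonist from 249.3 ± 16.5 to 168.8 ± 8.14 CPM in wild type (-0.56 ± 0.05, adjusted p = 6.09e-11) and from 129.2 ± 7.07 to 93.3 ± 1.81 CPM in the knock-in (-0.47 ± 0.05, adjusted p = 5.79e-09). It had the largest genotype difference of the set, lower in the knock-in by 0.95 ± 0.05 untreated (adjusted p = 1.9e-15) and 0.85 ± 0.05 treated (adjusted p = 2.45e-14). Lpin2 (ENSMUSG00000024052, chr17:71182560-71249817) read 959.8, 942.1 and 975.3 CPM in untreated wild type and 1501, 1557 and 1477 CPM with the agonist. The knock-in read 1099, 1090 and 1051 CPM untreated and 1326, 1341 and 1312 CPM with the agonist. The knock-in thus started above wild type (0.17 ± 0.03, adjusted p = 0.000237) and ended below it (-0.19 ± 0.03, adjusted p = 5.42e-05), and no groups overlap. Its rise was 0.66 ± 0.04 in wild type and 0.30 ± 0.03 in the knock-in, a difference of -0.36 ± 0.05 (adjusted p = 1.12e-05). The treated genotype difference was -0.05 and not called under total-count scaling (adjusted p = 0.231). Lpin3 changed by 0.14 ± 0.06 in wild type (adjusted p = 0.0444), a call lost in 11 of 19 alternative settings, and by 0.00 ± 0.05 in the knock-in.

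Neither Dgat1 nor Dgat2, the enzymes that add the last acyl chain to make triglyceride, was called higher with the agonist. Dgat1 (ENSMUSG00000022555, chr15:76502015-76511951) read 26.3, 27.2 and 26.4 CPM in untreated wild type and 23.1, 20.0 and 21.5 CPM with the agonist, a fall of 0.31 ± 0.06 (adjusted p = 0.000185). The knock-in read 25.5, 24.5 and 24.2 CPM and 23.5, 23.6 and 26.8 CPM, groups that overlap (-0.00 ± 0.06, adjusted p = 0.966). The difference between these effects was 0.30 ± 0.09 (adjusted p = 0.0294), lost in 6 of the 12 fits without 1 library (adjusted p up to 0.141, without treated knock-in replicate 3). Dgat2 fell from 272.1 ± 4.60 to 234.8 ± 7.31 CPM in wild type (-0.21 ± 0.04, adjusted p = 2.34e-05), and went from 229.6 ± 8.08 to 217.8 ± 2.48 CPM in the knock-in (-0.08 ± 0.04, adjusted p = 0.11). It was lower in the untreated knock-in by 0.24 ± 0.04 (adjusted p = 3.73e-06). In treated cells Dgat2 was lower by 0.11 ± 0.04 (adjusted p = 0.0195), which turned to 0.03 under total-count scaling. That call was also lost without the filter on low counts (adjusted p = 0.0538), without treated knock-in replicate 1 or 2 (adjusted p = 0.0541 and 0.0765) and without wild-type treated replicate 3 (-0.08, adjusted p = 0.129). Dgat1 was higher in the treated knock-in by 0.19 ± 0.06 (adjusted p = 0.012), lost without treated knock-in replicate 3 (0.13) or wild-type treated replicate 2 (adjusted p = 0.0749).

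Mogat1 (ENSMUSG00000012187, chr1:78510991-78538173), a monoacylglycerol acyltransferase known as a PPAR target in fatty liver, was close to the floor before treatment. Its libraries held 0, 3 and 2 reads in untreated wild type and 51, 43 and 58 with the agonist, and 5, 5 and 2 reads in the untreated knock-in and 55, 46 and 55 with the agonist. Treated libraries thus reached 1.41 to 2.16 CPM in both genotypes. The ratio of summed reads, corrected for depth, was 28.7 (95% interval 12 to 89.6) in wild type and 13 (7.23 to 25.7) in the knock-in, and these exact intervals cover counting error only. The difference in fitted effect, -1.10 ± 0.76, was not called (adjusted p = 0.456), and the interval from -2.60 to 0.40 leaves its sign unknown. Mogat1 shares 12.8% of its exonic bases with BC035947.

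The remodelling and hydrolysis genes held 2 of the largest rises. Mgll (ENSMUSG00000033174, chr6:88724412-88828360), monoacylglycerol lipase, which releases the last fatty acid from glycerol, read 56.0, 58.9 and 65.2 CPM in untreated wild type and 360.7, 347.8 and 373 CPM with the agonist. Knock-in libraries held 82.7, 80.9 and 85.3 CPM untreated and 376.4, 345.7 and 372 CPM with the agonist. The knock-in was above wild type without treatment (0.47 ± 0.05, adjusted p = 8.57e-09), and the treated groups overlap (0.02 ± 0.04, adjusted p = 0.795). The rise was 6.00-fold in wild type (2.59 ± 0.05, adjusted p = 1.75e-26) and 4.40-fold in the knock-in (2.14 ± 0.05, adjusted p = 1.03e-24), a difference of -0.45 ± 0.07 (adjusted p = 3.62e-05).

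Lpcat3 (ENSMUSG00000004270, chr6:124663027-124704418), which puts polyunsaturated chains into phospholipids and is a known target of LXR and PPAR, read 60.9, 63.1 and 56.9 CPM in untreated wild type and 265.6, 259 and 263 CPM with the agonist. The knock-in libraries gave 89.4, 90.1 and 92.0 CPM untreated and 297.1, 283.5 and 295.3 CPM with the agonist. The knock-in lay above wild type in both states without overlap, by 0.59 ± 0.04 untreated (adjusted p = 1.64e-12) and 0.15 ± 0.04 treated (adjusted p = 0.00133). The rise was 4.35-fold in wild type (2.12 ± 0.04, adjusted p = 1.02e-26) and 3.23-fold in the knock-in (1.69 ± 0.04, adjusted p = 1.35e-24), a difference of -0.43 ± 0.06 (adjusted p = 4.78e-06). Lpcat3 shares 10.2% of its exonic bases with Emg1. Pnpla3 (ENSMUSG00000041653, chr15:84167816-84189512), the lipid droplet protein whose gene is known for its variant in human fatty liver disease, read 6.23, 6.91 and 6.48 CPM in untreated wild type and 6.60, 6.81 and 5.58 CPM with the agonist. In the knock-in it read 5.90, 5.99 and 5.51 CPM untreated and 8.95, 8.68 and 9.40 CPM with the agonist. The treated knock-in stood above all other libraries and the wild-type groups overlap. The agonist effect was -0.04 ± 0.10 in wild type (adjusted p = 0.752) and 0.64 ± 0.09 in the knock-in (adjusted p = 1.3e-06), a difference of 0.68 ± 0.13 (adjusted p = 0.00119).

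**Figure D2:**
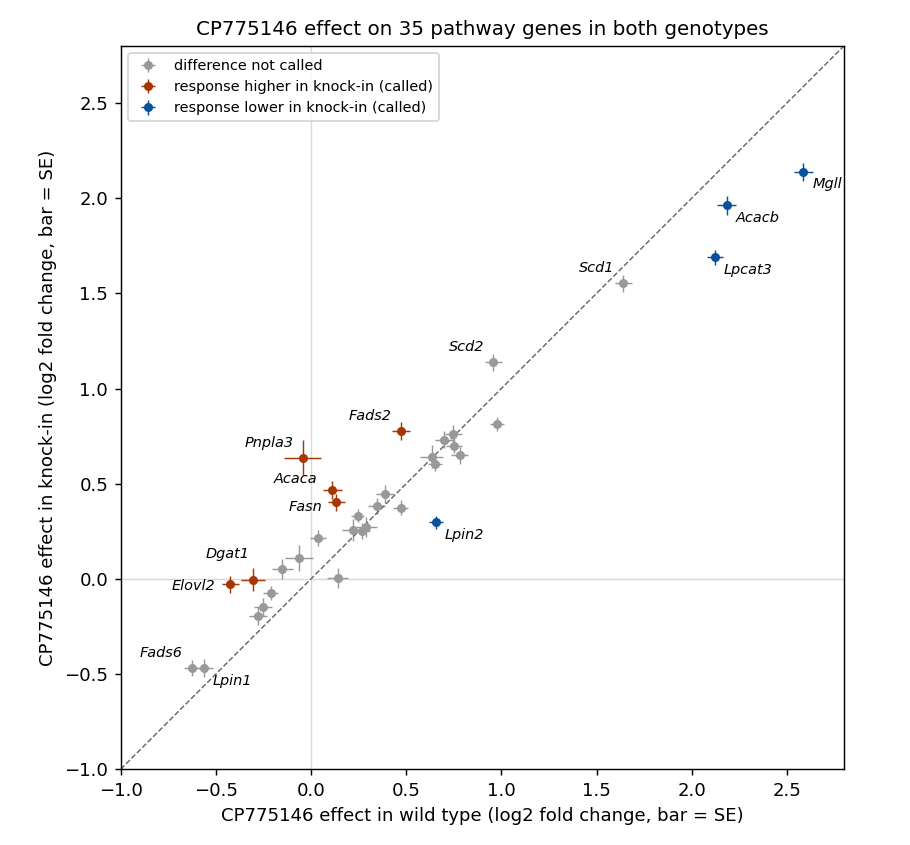
Log2 fold change with CP775146 in wild type (horizontal axis) against that in the knock-in (vertical axis) for 35 tested genes, with SE bars and a dashed line of equal effect. The 2 axes come from separate sets of 6 libraries. Mgll, Acacb, Lpcat3 and Lpin2 (blue) lie below the line and Pnpla3, Acaca, Fads2, Fasn, Elovl2 and Dgat1 (red) above it.

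Viewed together, 23 genes rose in both genotypes and 4 fell in both (Fads3, Fads6, Lpin1 and Mlxipl), while 14.2% of all tested genes rose in both and 14% fell in both. The 23 became 22 of 35 without Mogat1. Another 4 were called lower in wild type and not called in the knock-in (Dgat1, Dgat2, Elovl2 and Tecr), 3 were called higher in the knock-in and not called in wild type (Acaca, Fads1 and Pnpla3), Lpin3 was called in wild type alone, and Agpat1 in neither. Over all tested genes, 22.3% were lower in wild type, against 14% lower in both genotypes. Likewise 18.1% were higher in the knock-in, against 14.2% higher in both. Of the 8 genes of the set called in a single genotype, the difference in agonist effect was itself called for Acaca, Dgat1, Elovl2 and Pnpla3. No gene was called in opposite directions. The genes with a smaller effect in the knock-in (Mgll, Lpcat3, Acacb and Lpin2) rose in both genotypes. For Mgll, Lpcat3 and Lpin2 the untreated knock-in level was already above wild type, and for Acacb it was not (-0.10 ± 0.05, adjusted p = 0.149). Of the 6 with a more positive effect in the knock-in, Acaca, Fads2 and Elovl2 started lower there, and Fasn, Dgat1 and Pnpla3 were not called before treatment. The difference in effect equals the treated genotype difference minus the untreated one. Untreated levels therefore enter it by construction, and their direction is not separate evidence. The differences for Acaca, Elovl2, Fads2, Pnpla3, Lpcat3, Lpin2 and Mgll kept their call and direction in all alternative settings that gave a value.

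**Figure D3:**
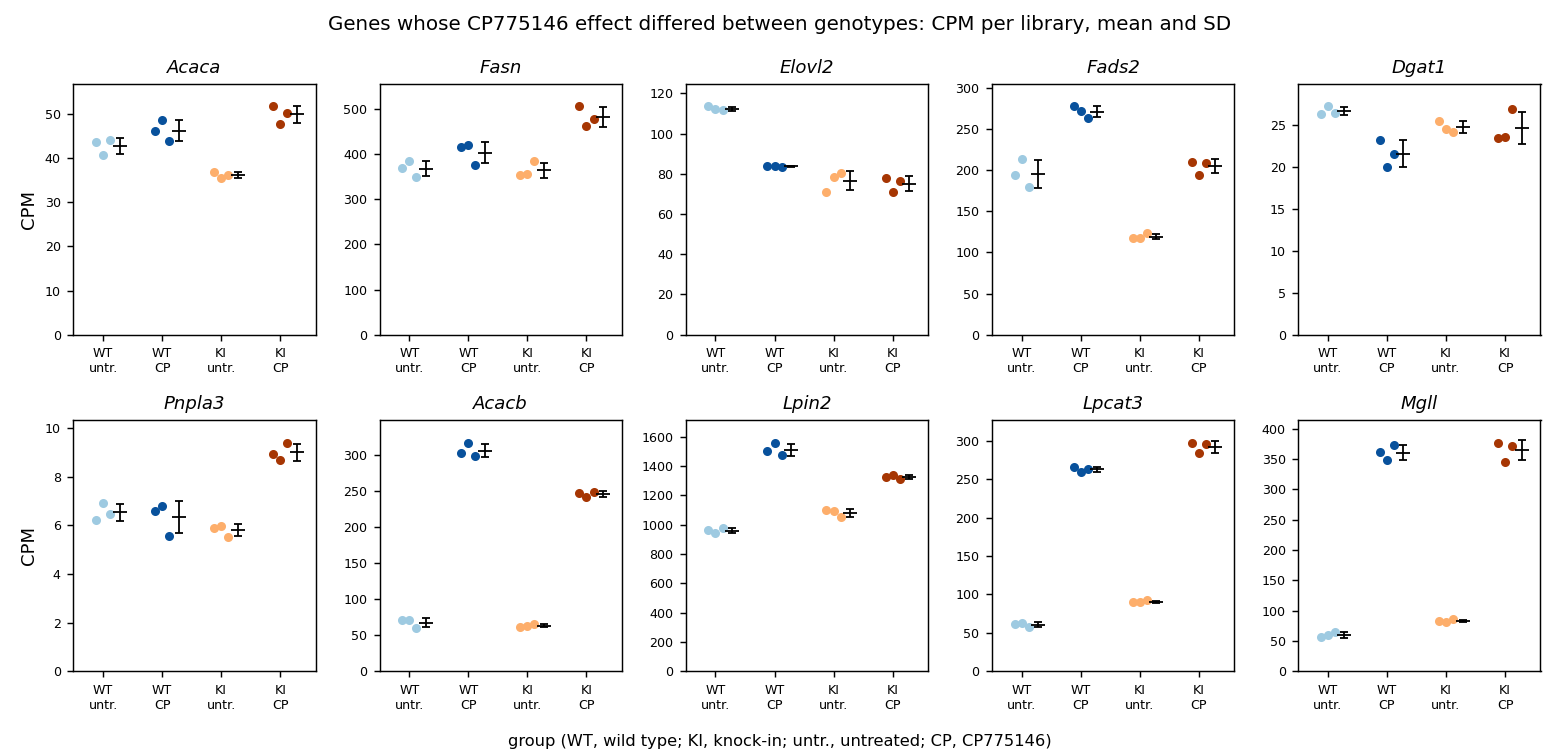
CPM of each library for the 10 genes whose CP775146 effect differed between genotypes, in the 4 groups, with mean and SD (n = 3) drawn beside the points. The axes start at 0 and differ in scale. Pnpla3 is raised in the treated knock-in only, Elovl2 is high in untreated wild type only, and Lpin2 changes its order between genotypes.

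Between genotypes, 6 genes were higher in the knock-in in both states (Agpat2, Elovl6, Fads3, Fads6, Lpcat3 and Scd2) and 7 were lower in both (Agpat3, Dgat2, Elovl2, Fads1, Fads2, Lpin1 and Thrsp), while 13.1% of all tested genes were higher in both and 13.5% lower in both. Lpin2 was called in opposite directions in the 2 states. A further 8 were called in neither state, among them Scd1, Slc25a1 and Me1. For Scd1 the 95% interval of the genotype difference was -0.03 to 0.13 untreated and -0.12 to 0.05 treated, and total-count scaling gave called values of 0.15 untreated and 0.10 treated, the latter of opposite sign. Differences of over 0.40 in both states were called for Scd2 and Fads3, which were higher, and for Lpin1, Fads2 and Fads1, which were lower in the knock-in.

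**Figure D4:**
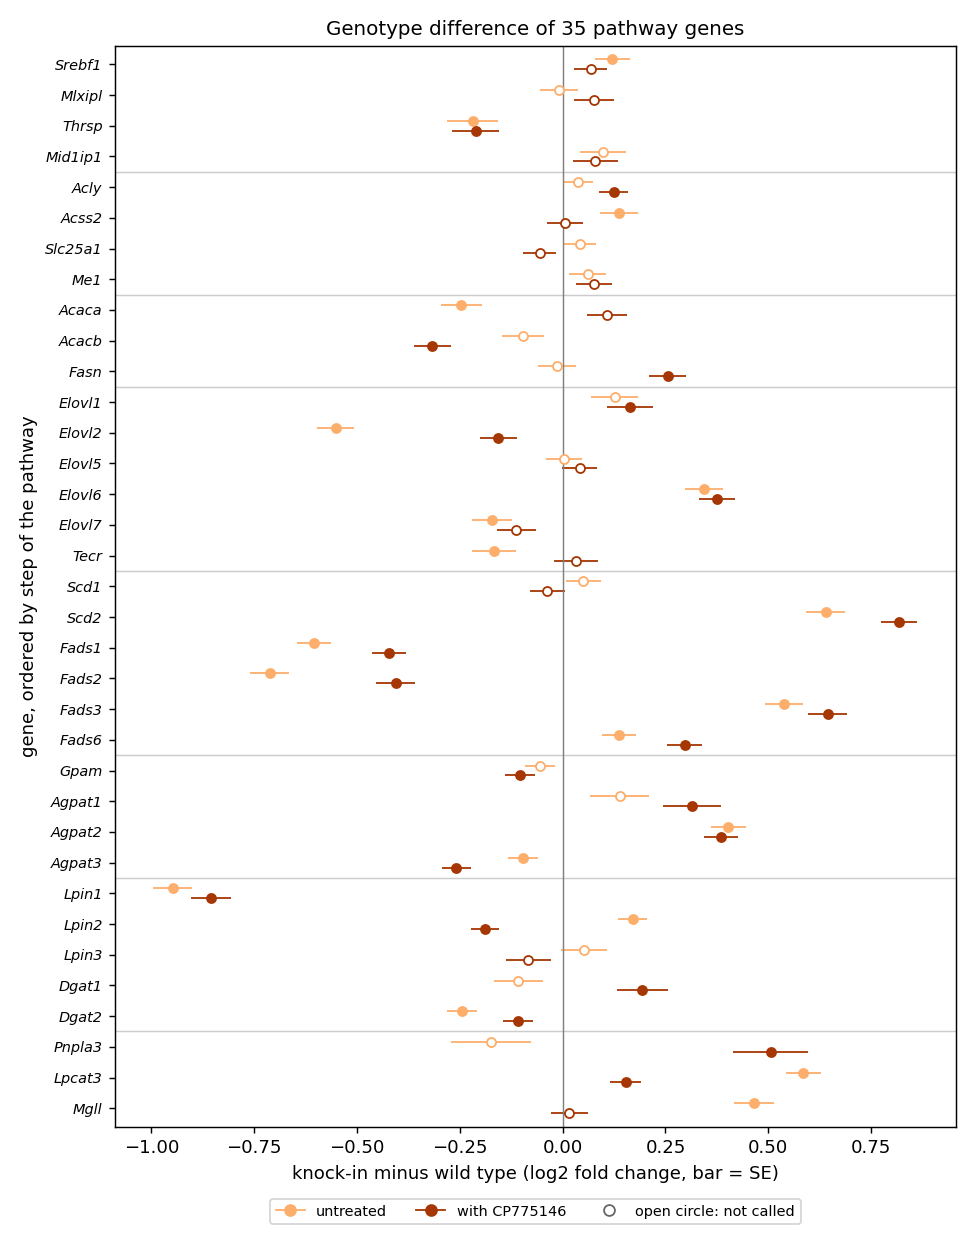
Log2 difference of knock-in from wild type for 35 tested genes, without treatment (light) and with CP775146 (dark), with SE bars, where open circles did not pass the threshold. Lpin1, Fads1 and Fads2 lie to the left in both states and Scd2, Fads3, Elovl6 and Agpat2 to the right.

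Some markers of other cell types also differed by genotype, and in bulk RNA fewer cells of a type and less RNA per cell cannot be told apart. The 5 macrophage markers summed to 211.5 to 251.8 CPM in untreated wild type and 151.3 to 160.6 CPM in the untreated knock-in, and to 184.4 to 189.1 and 106.2 to 120 CPM with the agonist. That sum is mostly Cd68, which was below wild type in the untreated knock-in (234 ± 22.2 against 151 ± 4.50 CPM), while Marco was higher (0.71 ± 0.12 against 1.25 ± 0.15 CPM). In each state 1 of the 5 was called higher in the knock-in and 1 lower, and their median difference was 0.21. The 5 endothelial markers summed to 69.8 to 79.7 and 40.2 to 46.5 CPM untreated and 59.2 to 63.1 and 29.3 to 35.5 CPM treated. Most of it is Stab2 (65.1 ± 4.81 against 33.7 ± 2.54 CPM untreated), the 1 of 4 tested that was called untreated, and with the agonist Stab2 and Pecam1 were called lower while Kdr and Lyve1 were not called. The 6 stellate and fibroblast markers summed to 7.69 to 8.77 and 4.98 to 6.47 CPM untreated and to 6.73 to 8.26 and 4.22 to 5.43 CPM treated. Of the 5 tested, Dcn and Col3a1 were called lower in each state, and Lrat read 0.62 ± 0.05 CPM in untreated wild type and 0.94 ± 0.11 CPM in the untreated knock-in (adjusted p = 0.0861). The 5 cholangiocyte markers summed to 10.9 to 11.4 CPM in untreated wild type and 24.4 to 25.1 CPM in the untreated knock-in, and to 23.2 to 24.4 and 27.8 to 29.6 CPM with the agonist. Of the 4 tested, Krt19, Krt7 and Sox9 were called higher in the untreated knock-in, and Krt19 and Krt7 in the treated one. The 5 adipocyte markers summed to at most 0.767 CPM, with Lep at 0 in every library. Of the 6 hepatocyte markers, 3 were called lower in the untreated knock-in (Alb, Apoa1 and Serpina1c) and 4 lower and 1 higher in the treated one. Cps1, the higher one, read 541.9 ± 20.8 CPM in treated wild type and 789.7 ± 26.7 CPM in the treated knock-in. For comparison, 18.4% of all tested genes were called higher and 18.6% lower in the untreated knock-in, and 20.5% and 22% in the treated one. The part of these marker levels in the genotype differences was not tested.

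Genes that work beside the 38 moved with them in part. Of 11 tested partners of elongation and desaturation, 8 rose and 1 fell with the agonist in each genotype. For these and the lists that follow, the shares of all tested genes were 22.7% higher and 22.3% lower in wild type and 18.1% and 19.1% in the knock-in. Hsd17b12, the ketoacyl reductase of the elongation cycle, rose from 246.5 ± 3.78 to 443 ± 11.8 CPM in wild type (0.85 ± 0.04) and from 260.9 ± 8.00 to 361.1 ± 10.4 CPM in the knock-in (0.47 ± 0.04), a smaller rise (-0.38 ± 0.05, adjusted p = 1.25e-05). The dehydratase gene Hacd3 rose more in the knock-in (0.90 ± 0.04) than in wild type (0.60 ± 0.04), a difference of 0.31 ± 0.05 (adjusted p = 0.00024), and its relative Hacd1 rose less (0.43 ± 0.06 against 0.74 ± 0.06, adjusted p of the difference 0.0132). Scd3, a further desaturase, rose from 1.88 ± 0.0705 to 4.87 ± 0.409 CPM and from 1.82 ± 0.149 to 5.26 ± 0.911 CPM.

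Of 17 tested glycerolipid partners, 9 rose and 3 fell in wild type, and 10 rose and 0 fell in the knock-in. Gk, glycerol kinase, rose from 56.2 ± 4.09 to 229.1 ± 8.56 CPM in wild type (2.03 ± 0.05) and from 102.5 ± 1.51 to 302.3 ± 11.6 CPM in the knock-in (1.56 ± 0.04), with a higher untreated level in the knock-in (0.87 ± 0.05) and a smaller rise (-0.47 ± 0.06, adjusted p = 1.01e-05). Gpat3, a glycerol 3-phosphate acyltransferase of the endoplasmic reticulum, rose by 1.76 ± 0.06 and 1.45 ± 0.06, and Fitm2, a gene of lipid droplet formation, by 0.68 ± 0.04 and 0.64 ± 0.04. Plpp3, a lipid phosphate phosphatase, fell in wild type (-0.14 ± 0.04, adjusted p = 0.00771) and rose in the knock-in (0.15 ± 0.04, adjusted p = 0.00312), and these effects differed (0.29 ± 0.06, adjusted p = 0.00137).

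Of 8 tested genes of NADPH and precursor supply beyond the 38, 7 rose and 0 fell in each genotype. G6pdx, which opens the pentose phosphate pathway, rose by 1.01 ± 0.06 in wild type and 0.57 ± 0.06 in the knock-in, and Idh1, the cytosolic isocitrate dehydrogenase, by 1.0 ± 0.04 and 0.80 ± 0.04. Dbi, the acyl-CoA binding protein, rose by 1.52 ± 0.05 and 1.02 ± 0.04, and Slc25a10, the dicarboxylate carrier, by 0.87 ± 0.05 and 1.12 ± 0.05. The rises of G6pdx, Idh1 and Dbi were smaller in the knock-in (adjusted p = 0.000596, 0.0168 and 4.04e-06) and that of Slc25a10 larger (adjusted p = 0.0356). Of 7 tested acyl-CoA synthetases, which prepare fatty acids for either storage or oxidation, 4 rose in each genotype, with 0 falling in wild type and 1 in the knock-in. Acsl1 rose from 119.9 ± 2.58 to 716.7 ± 29.5 CPM in wild type (2.58 ± 0.04) and from 111.7 ± 1.58 to 571.4 ± 13.5 CPM in the knock-in (2.35 ± 0.04). Acsl5, Acsl4 and Acsl3 rose by 1.19 ± 0.03, 1.11 ± 0.05 and 0.92 ± 0.06 in wild type and by 0.97 ± 0.03, 1.05 ± 0.05 and 0.89 ± 0.05 in the knock-in.

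Of 13 tested genes that control SREBP, ChREBP and LXR, 4 rose and 4 fell in wild type, and 4 rose and 1 fell in the knock-in. As shares these are 30.8% higher and 30.8% lower in wild type and 30.8% and 7.69% in the knock-in, and the median of the list was -0.01 and 0.00, against -0.01 for all genes in each. The Insig proteins hold SREBP in the endoplasmic reticulum. Insig2 rose from 375.1 ± 13.1 to 713.4 ± 17.1 CPM in wild type (0.93 ± 0.04) and from 270.2 ± 4.76 to 424.9 ± 8.19 CPM in the knock-in (0.65 ± 0.04), and was lower in the knock-in by 0.47 ± 0.04 untreated and 0.75 ± 0.04 treated. Insig1, itself a target of SREBP, rose from 93.3 ± 4.68 to 159.7 ± 4.08 CPM and from 93.2 ± 1.68 to 159.4 ± 5.45 CPM, by 0.77 ± 0.04 in each. Nr1h3, the gene of LXRα, rose by 0.14 ± 0.05 and 0.28 ± 0.05. Rxra, the partner of both PPARα and LXR, fell in wild type (-0.18 ± 0.04, adjusted p = 0.000158) and was not called in the knock-in (0.05 ± 0.04, adjusted p = 0.279), and these effects differed (0.24 ± 0.05, adjusted p = 0.00392).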

How the data were processed

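RNA was sequenced from 12 hepatocyte libraries. The authors' deposited files hold raw counts per gene. Per the file headers they were made with featureCounts 1.6.2 over exons of Ensembl release 83 (GRCm38) from Subread alignments to mm10, with no strand, overlap or multi-mapping option. Reads in overlapping genes were therefore not counted, and antisense genes cannot be told apart. The submitters' processing notes give featureCounts as 1.4.6-p4 and also list FastQC 0.11.2, cutadapt 1.9 and edgeR 3.18.1.

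Symbols were matched to 46488 of 46983 gene IDs. The 37 mitochondrial genes hold 0 counts. Counts were filtered (filterByExpr, minimum count 10, minimum total 15), which kept 15664 genes with 99.94% or more of each library's counts, scaled by TMM and fitted in R 4.3.3 with edgeR 4.0.16 (glmQLFit, robust, 1 term per group, 12 libraries). Tests were two-sided and p-values were adjusted over all 15664 genes. SE was taken as the fold change over the square root of F. The fit was also run on counts simulated from the means and dispersions of these data, with independent libraries. Such a run cannot show whether the replicates are separate animals or cultures.

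The genes and lists were chosen with earlier results of these data known. All 38 genes could be named. All library values were given for those with a fold change of at least 2 or a called difference in agonist effect, and up to 4 genes with the smallest adjusted p were named per further list. The alternative settings were DESeq2 1.42.0, scaling by RLE or by total counts, no filter, 5 CPM in 3 libraries, compared groups alone, a replicate block and leaving out each library. Replicate pairs differed by more than counting noise (chi-square per degree of freedom 1.7 to 6.82).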

Additional observations from a re-analysis of the deposited data

Results flagged for a closer look

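For 10 genes the agonist effect differed between genotypes in the edgeR test of the difference itself, given here as knock-in minus wild type on the log2 scale. Acaca had 0.36, Elovl2 0.40, Fads2 0.31, Pnpla3 0.68, Fasn 0.27 and Dgat1 0.30. Mgll had -0.45, Lpcat3 -0.43, Lpin2 -0.36 and Acacb -0.22. Groups of 3 libraries were not searched for outlying samples.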

How the results depend on the processing

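Of the calls for single genes, 13 of 20 for genotype without treatment, 28 of 32 for the agonist in wild type, 29 of 30 in the knock-in, 15 of 22 for genotype with treatment and 7 of 10 for the difference in effect were kept in every alternative that gave a value. Total-count scaling gave 18 genes higher and 6 lower in the untreated knock-in, 22 and 5 in the treated knock-in, and 11 with a more positive effect in the knock-in. Among differences called under at least 1 of the 2 scalings, the sign turned for the treated genotype differences of Scd1 (0.10), Gpam (0.034), Dgat2 (0.029) and Insig1 (0.135) and for the untreated one of Agpat3 (0.005). It also turned for 21 differences called under neither scaling, 12 of them among the 36 genes. These shifts follow the scaling by construction. Without treated knock-in replicate 1, 732 of all genes had a called difference in effect, against 1113 with all libraries, and the cause was not tested.

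Leaving out each library in turn gave 4956 to 6072 calls over all genes for genotype without treatment, 6255 to 6987 for the agonist in wild type, 4809 to 6092 in the knock-in, 5775 to 6888 for genotype with treatment and 732 to 1468 for the difference in effect. Among the 36 genes the counts higher and lower were 8 to 11 and 7 to 10 for genotype without treatment, 22 to 24 and 7 to 8 for the agonist in wild type, 26 and 3 to 4 in the knock-in, 11 to 13 and 7 to 11 for genotype with treatment, and 5 to 8 and 3 to 5 for the difference.

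No pairing by replicate number was seen: same-numbered libraries deviated together with correlations of -0.026 to 0.063 in 18 pairs, and other pairs with -0.073 to 0.071. Such values do not exclude that same-numbered libraries share an animal or preparation. The replicate block gave 10 higher and 10 lower genes for genotype without treatment, 23 and 8 for the agonist in wild type, 26 and 4 in the knock-in, 12 and 10 for genotype with treatment, and 6 and 3 for the difference. Over all genes the block gave 5775 calls for genotype without treatment. It ended the calls of Acacb (difference, adjusted p = 0.0524) and Lpin3 (wild type, adjusted p = 0.0504) and no other call among the 36. Fits of the compared groups alone give no value for the difference in effect, and the 5 CPM filter gives none for Mogat1. Depth limited Elovl3, Agpat4 and Mogat1, with 4 to 16 reads per untreated group.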
